A study of Mus musculus with 11 samples.

Results

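Retinoic acid is made from vitamin A, carried in the cytoplasm and broken down again by a small set of proteins, and 9 of their genes were followed in the mouse embryo while the neural tube closes: Rdh10, Dhrs3, Aldh1a1, Aldh1a2, Aldh1a3, Crabp1, Crabp2, Cyp26a1 and Cyp26b1. They were chosen by name, from their known roles, out of 18193 genes that had an array probe set annotated with exactly 1 symbol. Earlier results of these data were known when they were chosen. All 9 were found, on 12 probe sets, and the probe set of highest mean over the 11 arrays stood for each gene. A filter on low values kept 8 of the 9, and Aldh1a1 fell below it.

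The tissue came from C57BL/6 embryos with no mutation, transgene or drug treatment given in the labels, at embryonic day 9.5 (E9.5) and 8.5 (E8.5). At E9.5 there were 3 arrays of closed neural tube and 3 of open neuroepithelium. At E8.5 there were 2 of closed neural tube and 3 of open neuroepithelium. Each array held RNA of tissue pooled within a litter, from 111 embryos in all. A protease was applied for 8 min at E9.5 and for 5 min at E8.5. The neural tissue was then peeled off together with the notochord that clings to it, so the samples are not pure neural tissue. Open tissue lay caudal to the point where the folds meet, cut so as to leave out most of the primitive streak or tail bud, and closed tissue lay rostral to it, so that closure and axial level cannot be told apart in any comparison of the regions.

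Retinol is first oxidised to retinaldehyde, which Rdh10 does in the embryo and Dhrs3 reverses by reducing retinaldehyde back to retinol. The Aldh1a enzymes then make retinoic acid in a step that cannot be undone, with Aldh1a2 the main one of the early trunk, where it is best known from the somites beside the neural tube. Crabp1 and Crabp2 bind retinoic acid in the cytoplasm, and Cyp26 enzymes oxidise it to products that are removed, Cyp26a1 being known from the caudal end of the embryo. In the trunk, retinoic acid from the mesoderm is known to oppose caudal FGF signals while neural genes come on.

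A stretch before the start used for Cyp26a1, itself a known target of retinoic acid, held a letter match to a repeat of the receptor hexamer. The 30 bases shown are at chr19:37697770-37697799 on the plus strand of GRCm38.p6 (RefSeq), positions -38 to -9 from the start used by the promoter table, a start that lies inside the gene's annotated span of chr19:37697738-37701536. The capitals mark a direct repeat of the receptor hexamer with 5 bases between the copies, read on the minus strand.

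Cyp26a1 direct repeat: taaagaTGAACTTTGGGTGAACTaatttgt

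A search over the 250 bases before each start, on both strands, took AGGTCA as the hexamer, with a G also allowed at the first base and a T at the third. The repeat with 5 bases between was found in 0.0883% of 32851 promoters. Repeats with 2 and with 1 base between were found in 0.174% and 0.164% of them, and in no member that had an entry. Promoters were at hand for 6 of the 9 members. The stretch before Aldh1a2, the gene with the largest rise in closed tissue among the members, is shown to set beside it, at chr9:71215539-71215788 on the plus strand of the same build, ending at the base before the gene's start. The capitals mark ATGCAAAT, at positions -84 to -77 from the start, a motif of POU factors that was picked after the sequence had been read and that 1.6% of the promoters held.

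Aldh1a2 upstream: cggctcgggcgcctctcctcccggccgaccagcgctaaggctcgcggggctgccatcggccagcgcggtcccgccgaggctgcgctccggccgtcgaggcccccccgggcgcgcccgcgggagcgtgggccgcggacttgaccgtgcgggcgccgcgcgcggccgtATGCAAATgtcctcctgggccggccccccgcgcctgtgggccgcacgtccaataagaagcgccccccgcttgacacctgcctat

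The same motif was found at -56 to -49 from a start of Aldh1a1, and TATAAA, which 12.4% of the promoters held, at -139 to -134 from that of Cyp26b1. The stretch before Aldh1a2 was 77.6% G and C, against a median of 52.4% over all promoters. These matches describe letters only, and binding was not measured.

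Arrays that stood apart are named first, since some results rest on them. Replicate 2 of closed E8.5 tissue had a summed signal of 722.4 over 12 somite marker genes, against 322.1 in replicate 1, and the other 9 arrays lay between 269 and 301.8. Of these 12 genes, 7 were higher by over 1 log2 unit in replicate 2 than in replicate 1, against 2% of all tested genes. The 2% covers only genes that passed the filter, which Meox2, Foxc2, Twist1, Tbx18 and Myf5, among the 7, did not. Meox1, a somite transcription factor, was at 8.11 in replicate 2 and at 6.30 in replicate 1. For Gapdh and Actb, the control probe sets at the 3-prime end minus those at the 5-prime end, a sign of RNA quality, came to 2.20 and 2.48 in replicates 1 and 2 of open E9.5 tissue and 1.14 to 1.82 on the other arrays. Sox2, which marks neural progenitors, was at 10.99 to 11.63 on all 11 arrays. A list of 14 neural progenitor genes summed to 11440 to 12360 in closed E9.5 tissue, 4494 to 5525 in open E9.5 tissue, 11580 to 12740 in closed E8.5 tissue and 5568 to 6138 in open E8.5 tissue. In bulk tissue of this kind, fewer cells of a type and less RNA per cell cannot be told apart.

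Values below are log2 signal as the authors deposited it. A difference is that of the group means on this scale, always of the closed over the open region or of the later over the earlier stage, and its standard error (SE) is that of a limma model over all 11 arrays. A gene was called where its adjusted p, by the Benjamini-Hochberg method over 13338 genes, was under 0.05. The labels call the arrays biological replicates, and so few of them limit the precision.

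The regions differed most in Aldh1a2 and Cyp26a1. In closed tissue the synthesis gene Aldh1a2 was several-fold higher at both stages, and the breakdown gene Cyp26a1 was many-fold lower. Crabp2 was higher at both stages, while Rdh10 and Dhrs3 were called higher at E8.5. At E9.5, 3 of the 8 tested members were called (37.5%), against a background of 8.54% of all genes. Of these, 2 were higher, as were 2.75% of all genes, and 1 was lower, as were 5.79%. At E8.5, 5 were called (62.5%), against 7.17%, with 4 higher (background 3.79%) and 1 lower (background 3.38%). The median difference of the 8 was 0.32 at E9.5 and 0.70 at E8.5, beside -0.0069 and 0.0015 over all genes. The groups did not overlap for 5 members at E9.5, where 22.5% of all genes did not, and for 5 members at E8.5, where 27.5% did not.

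**Figure D1:**
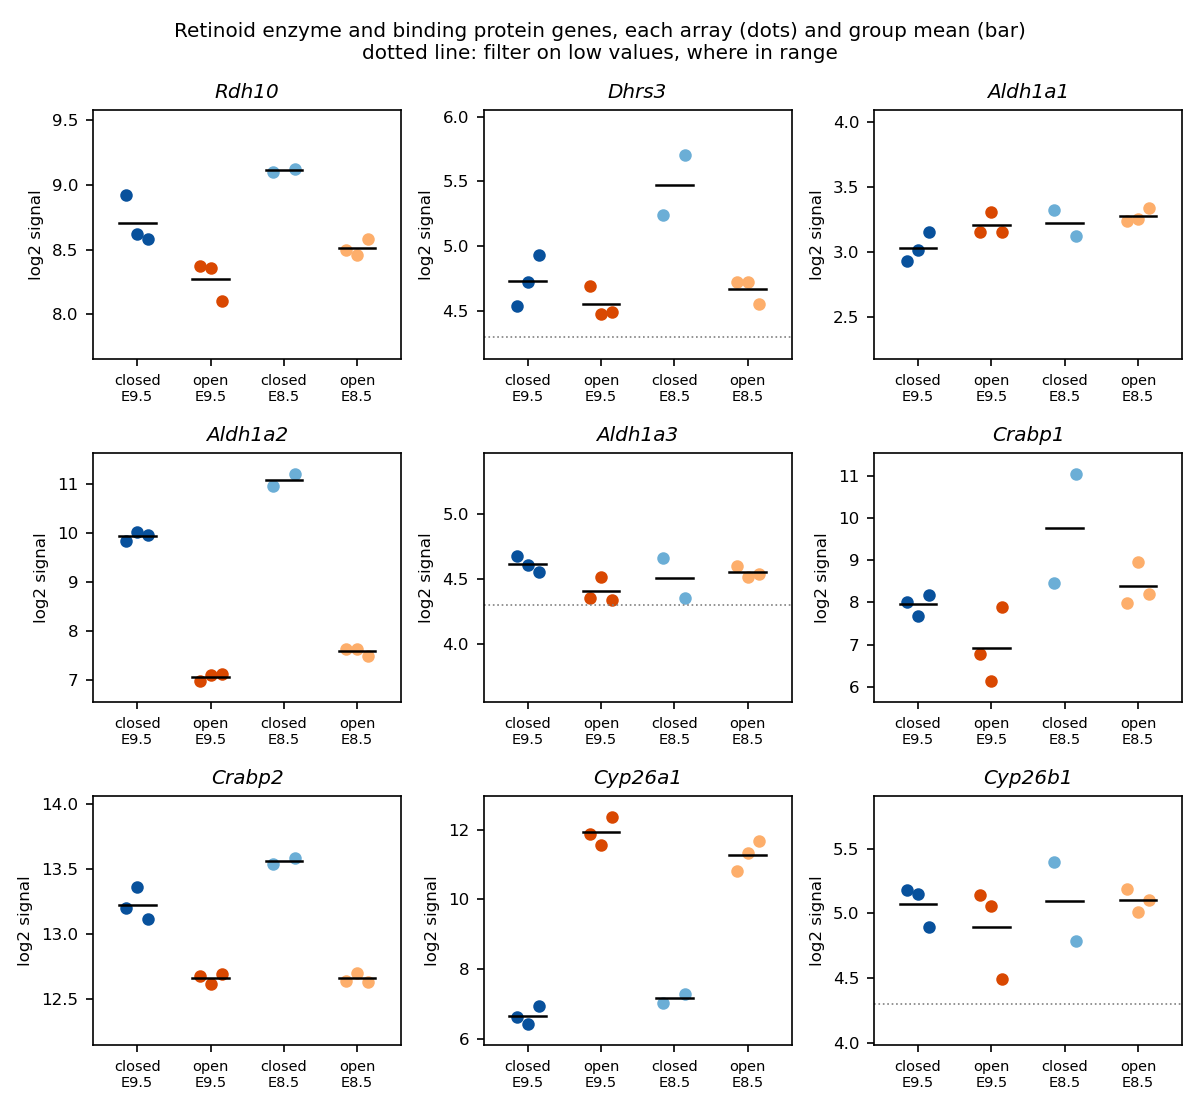
Log2 signal (vertical axis, a separate scale for each gene) of the 9 genes on each of 11 arrays (dots) with the group mean (bar), for closed and open tissue at E9.5 and then at E8.5. A dotted line marks the filter at 4.30 where it is in range. Aldh1a2 and Cyp26a1 separate the regions in opposite directions, and Crabp1 has 1 closed E8.5 array at 11.04 far above the other at 8.46.

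Rdh10, the retinol dehydrogenase that opens the pathway, was at 8.92, 8.62 and 8.58 in closed tissue and 8.37, 8.36 and 8.10 in open tissue at E9.5. At E8.5 it was at 9.10 and 9.13 in closed tissue and 8.50, 8.46 and 8.58 in open tissue. Every closed array was above every open array of its stage, by small steps. The difference was 0.43 at E9.5 (SE 0.12, limma adjusted p = 0.05875) and 0.60 at E8.5 (SE 0.14, 1.51-fold, adjusted p = 0.02229). The E8.5 call was lost when any of the 5 E8.5 arrays was left out (adjusted p from 0.054 to 0.1247), while the difference stayed between 0.57 and 0.63. With the replicate number as a block the E9.5 difference of 0.43 had an adjusted p of 0.01326.

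A second probe set of Rdh10 was at 8.14, 7.57 and 7.14 in closed tissue and 7.65, 7.54 and 6.72 in open tissue at E9.5. At E8.5 it was at 8.22 and 7.75 in closed tissue, and at 7.49, 7.29 and 7.55 in open tissue. Its regions overlapped at E9.5 and not at E8.5, and its arrays were spread more widely than those of the leading probe set. Its differences were 0.31 at E9.5 (limma adjusted p = 0.6871) and 0.54 at E8.5 (adjusted p = 0.6413), of the same sign as those of the leading probe set and not called.

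Dhrs3, the reductase that takes retinaldehyde back to retinol and is itself a known target of retinoic acid, was at 4.54, 4.73 and 4.94 in closed tissue and 4.70, 4.48 and 4.49 in open tissue at E9.5. At E8.5 it was at 5.24 and 5.70 in closed tissue and 4.73, 4.73 and 4.55 in open tissue. The 2 closed E8.5 arrays were above all the others, and the remaining 9 lay close above the filter of 4.30, where the size of a difference depends on background. The E9.5 difference was 0.18 (SE 0.14, limma adjusted p = 0.5661), and the E8.5 difference was 0.80 (SE 0.16, 1.74-fold, adjusted p = 0.007624). Its higher closed E8.5 value came from replicate 2, the array with the high somite signal. Without that array the difference was 0.57 and its adjusted p 0.0939.

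Aldh1a2 had the widest gap of the 3 retinaldehyde dehydrogenases. It was at 9.84, 10.02 and 9.95 in closed tissue and 6.97, 7.11 and 7.12 in open tissue at E9.5, and at 10.96 and 11.21 in closed tissue and 7.63, 7.62 and 7.50 in open tissue at E8.5. The 4 groups stood in the order closed E8.5, closed E9.5, open E8.5 and open E9.5, and no neighbours in that order overlapped. The regions differed by 2.87 at E9.5 (SE 0.11, 7.31-fold, limma adjusted p = 7.037e-08) and by 3.50 at E8.5 (SE 0.13, 11.3-fold, adjusted p = 6.338e-08). Over 22 alternative settings each, including every array left out in turn, the differences ranged from 2.81 to 2.96 at E9.5 and from 3.37 to 3.62 at E8.5, all called.

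Since Aldh1a2 is best known from somites, its values were set beside the somite markers. At E9.5 the somite list summed to 289.8 to 295.6 in closed tissue and 269 to 301.8 in open tissue, and Aldh1a2 differed by 2.87. The somite ranges overlapped, but with 7 of the 12 genes below the filter they cannot measure the amount of somite tissue. At E8.5 the somite list was higher in closed tissue, at 322.1 and 722.4, against 271.7 to 289 in open tissue. Aldh1a2 was 10.96 on the closed E8.5 array of lower somite signal and 11.21 on that of higher signal, and without the array of higher signal its E8.5 difference was 3.37 (limma adjusted p = 1.011e-06). Motor neurons are another known site of Aldh1a2 at later stages. Their markers summed to 791.5 to 901.4 in closed and 933.4 to 1406 in open tissue at E9.5. At E8.5 the sums were 520.4 to 589.8 in closed and 892.4 to 955.5 in open tissue. Slit2 weighed most in them, and single genes went both ways. At E9.5 Mnx1 was at 5.43 in closed and 7.68 in open tissue, and Isl1 at 4.79 and 4.32. The median difference of the 8 tested was 0.115 at E9.5 and -0.131 at E8.5. The part of somite or motor neuron tissue in the Aldh1a2 signal was not tested.

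Aldh1a3 and Aldh1a1 showed no such pattern. Aldh1a3, a dehydrogenase best known from eye and nose, was at 4.56 to 4.68 in closed and 4.34 to 4.52 in open tissue at E9.5, and at 4.35 and 4.66 in closed and 4.51 to 4.60 in open tissue at E8.5. It was near the filter on every array, and its differences of 0.21 at E9.5 (SE 0.10, limma adjusted p = 0.2872) and -0.04 at E8.5 (adjusted p = 0.9729) were not called. With array weights the E9.5 difference was 0.25 and was called (adjusted p = 0.02827). Its other probe sets were at 4.22 to 4.51 and at 2.75 to 3.31 (below the filter). Aldh1a1, known from the dorsal eye, was at 2.93 to 3.16 in closed and 3.16 to 3.31 in open tissue at E9.5, and at 3.12 and 3.33 in closed and 3.24 to 3.34 in open tissue at E8.5, so it was not tested.

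The binding proteins differed from each other in their spread. Crabp2, which hands retinoic acid to its nuclear receptor, was at 13.20, 13.36 and 13.12 in closed tissue and 12.67, 12.62 and 12.69 in open tissue at E9.5, and at 13.54 and 13.59 in closed tissue and 12.64, 12.70 and 12.63 in open tissue at E8.5. Every closed array was above every open array, and the open arrays of the 2 stages overlapped. The differences were 0.57 at E9.5 (SE 0.07, 1.48-fold, limma adjusted p = 0.0002149) and 0.91 at E8.5 (SE 0.08, 1.88-fold, adjusted p = 1.298e-05), and both were called in all 22 alternative settings.

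Crabp1, which is known to bring retinoic acid to the enzymes that break it down, was at 8.02, 7.67 and 8.17 in closed tissue and 6.78, 6.13 and 7.88 in open tissue at E9.5, and at 8.46 and 11.04 in closed tissue and 7.99, 8.95 and 8.20 in open tissue at E8.5. The regions overlapped at both stages, and single arrays lay far from the rest of their group. The closed minus open difference was 1.02 at E9.5 (SE 0.58, limma adjusted p = 0.3864) and 1.37 at E8.5 (SE 0.64, adjusted p = 0.3628), neither called. With the replicate block they were 1.02 at E9.5 (adjusted p = 0.02322) and 1.28 at E8.5 (adjusted p = 0.0299). Crabp1 is a known marker of neural crest. The 8 crest markers measured summed to 1504 to 1711 in closed and 383.9 to 601.9 in open tissue at E9.5. At E8.5 the sums were 1413 to 1506 in closed and 389.8 to 468.3 in open tissue. Ednrb weighed most in the closed sums, with E9.5 means of 9.78 in closed and 4.97 in open tissue. Snai2 went the other way, at 7.01 and 7.70. Of the 7 tested, 4 were called higher by limma at each stage (background 2.75% at E9.5 and 3.79% at E8.5) and 0 lower.

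The 2 closed E8.5 arrays were 2.57 apart in Crabp1, and only 1 of the 13338 tested genes was higher in replicate 2 by more than that. Without replicate 2 the E8.5 difference was 0.08 (limma adjusted p = 0.9721), and without replicate 1 it was 2.66 (adjusted p = 0.01301), so that the array left out decides it. Replicate 2 was also the array of high somite signal, and 3 of 8 neural crest genes were over 1 log2 unit higher in it than in replicate 1. At E9.5 the difference was 0.07 (adjusted p = 0.9729) without replicates 1 and 2 of open tissue, the arrays with the largest 3-prime minus 5-prime signal. With the 3-prime minus 5-prime signal as a covariate, the E8.5 difference was 1.76 (SE 0.38) and was called (limma adjusted p = 0.006388). The E9.5 difference was not called in that fit. Beyond these fits, the part of somite tissue, neural crest or RNA quality in these values was not tested.

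**Figure D2:**
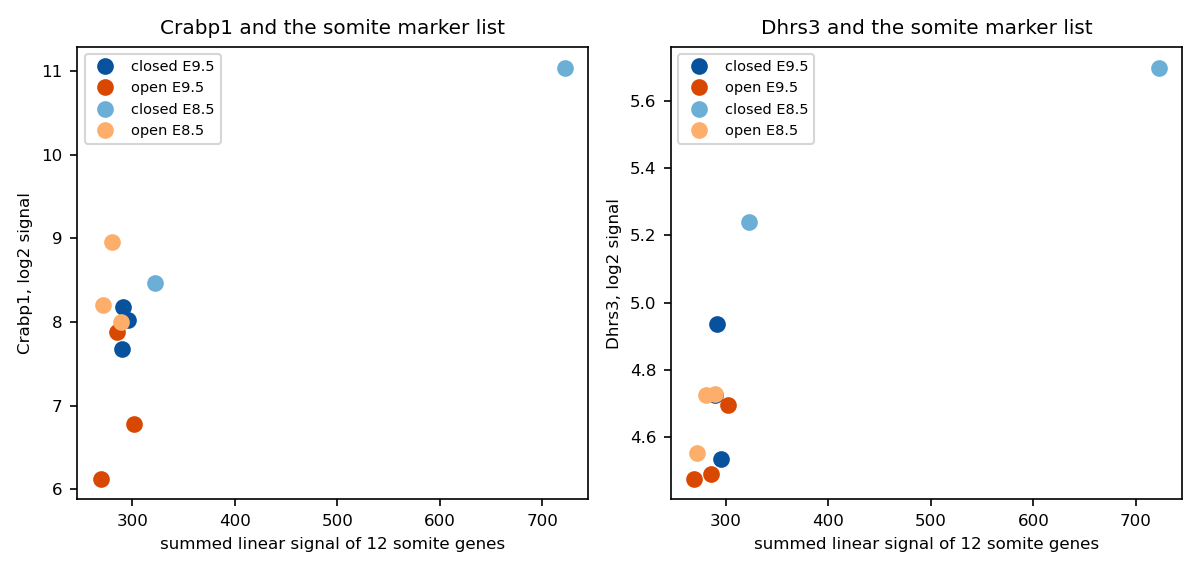
Log2 signal of Crabp1 (left) and Dhrs3 (right) on each of 11 arrays against the summed linear signal of 12 somite marker genes, coloured by group. Replicate 2 of closed E8.5 tissue is at 722.4 on the horizontal axis and highest in both genes, while the other 10 arrays lie between 269 and 322.1.

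Cyp26a1, the oxidase that clears retinoic acid in the caudal embryo, ran the other way from Aldh1a2. It was at 6.63, 6.41 and 6.94 in closed tissue and 11.88, 11.57 and 12.36 in open tissue at E9.5, and at 7.03 and 7.29 in closed tissue and 10.81, 11.32 and 11.67 in open tissue at E8.5. No closed array came within 3 log2 units of any open array, and the open groups of the 2 stages overlapped. The difference was -5.28 at E9.5 (SE 0.24, 38.7-fold lower in closed tissue, limma adjusted p = 1.318e-07) and -4.11 at E8.5 (SE 0.27, 17.2-fold lower, adjusted p = 1.959e-06). Over 22 alternative settings each it stayed between -5.70 and -5.06 at E9.5 and between -4.34 and -3.91 at E8.5.

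Markers of the caudal progenitors, in which Cyp26a1 is known to be expressed, moved with it. The 11 genes measured summed to 4210 to 4410 in closed and 14980 to 17410 in open tissue at E9.5, and to 3488 to 3841 in closed and 14080 to 16060 in open tissue at E8.5. Of these 11, 10 were called lower in closed tissue at E9.5 (background 5.79%) and 9 at E8.5 (background 3.38%). Presomitic markers summed to 1022 to 1443 in closed and 1414 to 2192 in open tissue at E9.5, and to 1148 to 1456 in closed and 2116 to 2771 in open tissue at E8.5. The part of tail bud or streak tissue in the Cyp26a1 signal was not tested.

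Cyp26b1, the related enzyme known from the hindbrain and limb, was at 4.90 to 5.18 in closed and 4.49 to 5.14 in open tissue at E9.5, and at 4.79 and 5.40 in closed and 5.01 to 5.19 in open tissue at E8.5. All groups overlapped. Its region difference was 0.18 at E9.5 (SE 0.19, limma adjusted p = 0.6857) and -0.01 at E8.5 (SE 0.21, adjusted p = 0.9981). With the 3-prime minus 5-prime signal as a covariate, the E9.5 difference was 0.45 (SE 0.12) and was called (adjusted p = 0.0258).

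**Figure D3:**
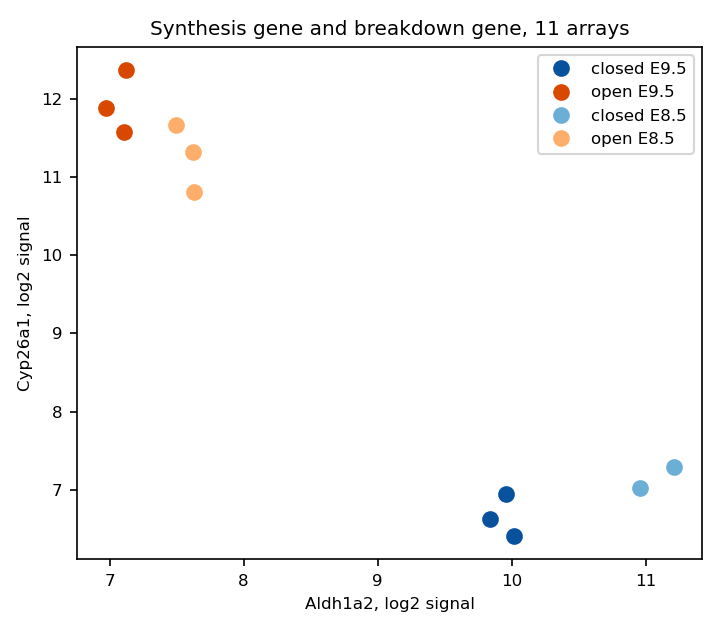
Log2 signal of Cyp26a1 (vertical) against Aldh1a2 (horizontal) on each of 11 arrays, coloured by group. Closed arrays lie between 9.84 and 11.21 in Aldh1a2 and between 6.41 and 7.29 in Cyp26a1, and open arrays between 6.97 and 7.63 and between 10.81 and 12.36, with a gap between the regions on both axes.

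Between the stages, Aldh1a2 was called lower at E9.5 than at E8.5 in both regions, and Dhrs3 and Crabp2 in closed tissue. In closed tissue 3 of 8 were called (37.5%), against a background of 2.42%. All 3 were lower at E9.5 than at E8.5, where 1.46% of all genes were called lower and 0.96% higher. In open tissue 1 of 8 was called (12.5%), against 5.02%. It was lower, as were 1.42% of all genes, while 3.61% were higher. The median over the 8 was -0.45 in closed and -0.18 in open tissue, beside -0.03 and -0.02 over all genes. The stages did not overlap for 6 members in closed tissue (21.2% of all genes) and 3 in open tissue (21.8%). Tissue was cut relative to the closure point, which moves caudally, and protease treatment was longer at E9.5 (8 min) than at E8.5 (5 min). Stage, axial level and protease time thus also cannot be told apart. The comparisons share groups with those of the regions, and so are not independent of them.

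Blood markers also differed between the stages, most of all the globin genes Hbb-y, Hbb-bh1 and Hba-x. The 7 genes measured summed to 2258 to 5757 in closed E9.5 tissue, against 769.3 to 884.5 in closed E8.5 tissue, and to 4956 to 7229 in open E9.5 tissue, against 200.7 to 753.6 in open E8.5 tissue. These sums did not overlap between the stages in either region. Of 4 that passed the filter, 3 were called higher at E9.5 in open tissue (background 3.61%) and 0 by limma in closed tissue (background 0.96%), where 3 had an unadjusted p under 0.05. Gata1 and Alas2, of red cell precursors, were below the filter in all groups. Klf1, which passed the filter and is no globin, was at 5.29 in closed E9.5 and 5.14 in closed E8.5 tissue. In open tissue it was at 5.31 at E9.5 and 5.30 at E8.5. The part of blood in the members' stage differences was not tested.

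Aldh1a2 was lower at E9.5 than at E8.5 in closed tissue (difference -1.14, SE 0.13, 2.21-fold lower, limma adjusted p = 0.0003995), and it was called in all 21 alternative settings. In open tissue its difference was -0.52 (SE 0.11, 1.43-fold lower, adjusted p = 0.02092). That call was lost without open E9.5 replicate 1 (adjusted p = 0.09431) or 2 (0.05476), without open E8.5 replicate 1 (0.09211) or 2 (0.08073), and in a fit of only the 2 groups compared (0.05024), while the difference stayed between -0.58 and -0.44 over all settings.

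Dhrs3 was lower at E9.5 than at E8.5 in closed tissue, with a difference of -0.74 (SE 0.16, limma adjusted p = 0.03153). Without closed E8.5 replicate 2 it was -0.51 (adjusted p = 0.2547), and the call was also lost without closed E9.5 replicate 1 (0.1036) or 2 (0.1163) and without open E8.5 replicate 1 (0.05414) or 3 (0.05125). Crabp2 in closed tissue was lower at E9.5 by a small step, with a difference of -0.34 (SE 0.08, adjusted p = 0.04263), with its 3 closed E9.5 arrays all below the 2 closed E8.5 arrays. That call was lost when any of 9 of the 11 arrays was left out (adjusted p from 0.05414 to 0.237). In open tissue Crabp2 differed by 0.00 (SE 0.07, adjusted p = 0.9832).

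For Cyp26a1 the stages differed by 0.67 in open tissue (SE 0.24, limma adjusted p = 0.1617) and by -0.50 in closed tissue (SE 0.27, adjusted p = 0.6577), neither called in the main fit. In open tissue it was called with the 3-prime minus 5-prime signal as a covariate (1.04, adjusted p = 0.009015) and with array weights (0.49, adjusted p = 0.04518). Crabp1 had larger values with larger errors, -1.80 in closed tissue (SE 0.64, adjusted p = 0.2723) and -1.45 in open tissue (SE 0.58, adjusted p = 0.2097). With the covariate its difference in closed tissue was -1.88 and called (adjusted p = 0.007384). With array weights its difference in open tissue was -1.53 and called (adjusted p = 0.002408). Without closed E8.5 replicate 2 the difference in closed tissue was -0.51, and without replicate 1 it was -3.09 and called (adjusted p = 0.01539). Rdh10 differed by -0.41 in closed tissue (SE 0.14, adjusted p = 0.2379) and -0.24 in open tissue (SE 0.12, adjusted p = 0.3668). Cyp26b1 differed by -0.20 in open tissue (SE 0.19, adjusted p = 0.6098), and by -0.58 with the covariate, where it was called (adjusted p = 0.01721).

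Whether the region difference itself changed between the stages was tested by the interaction of region and stage. None of the 8 members passed by limma over all genes, where 1.25% of all genes did (0.3% positive and 0.952% negative), and 4 had an unadjusted p under 0.05. Cyp26a1 came to -1.17 (SE 0.36, adjusted p = 0.2345), Aldh1a2 to -0.63 (SE 0.17, adjusted p = 0.1463), Crabp2 to -0.34 (SE 0.10, adjusted p = 0.2119) and Dhrs3 to -0.62 (SE 0.21, adjusted p = 0.2981). With the replicate block the Cyp26a1 value was -1.37 and passed (adjusted p = 0.0006665). With the 3-prime minus 5-prime signal as a covariate, Cyp26a1 came to -1.56 (adjusted p = 0.01234) and Aldh1a2 to -0.71 (adjusted p = 0.04244), and both passed. The interaction call for either gene thus depends on the fit.

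**Figure D4:**
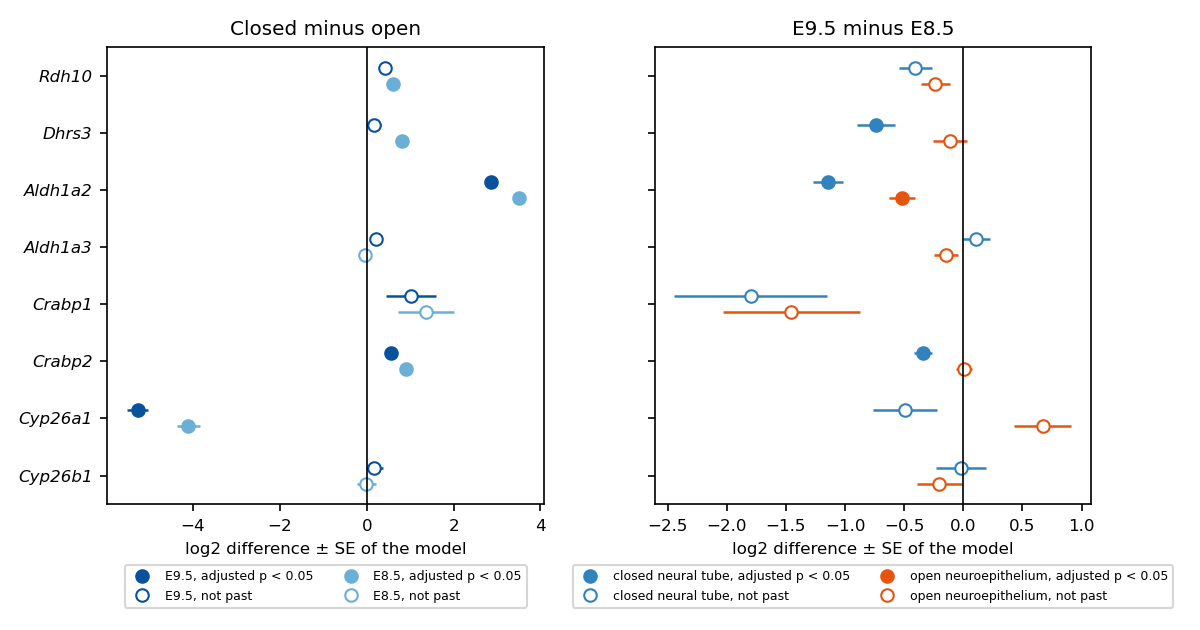
Log2 differences with the SE of the model for the 8 tested genes, closed minus open (left, E9.5 and E8.5) and E9.5 minus E8.5 (right, closed and open tissue). Filled points passed an adjusted p of 0.05 and open points did not. Cyp26a1 at -5.28 and -4.11 and Aldh1a2 at 2.87 and 3.50 lie farthest from 0 on the left.

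The wider retinoid pathway was taken from lists of known genes. Of the supply and storage genes, which bring retinol into cells and keep it as esters, 8 were tested and 0 passed by limma in any of the 5 comparisons. At an unadjusted p under 0.05, 0 did between the regions at E9.5, 1 at E8.5, and 2 between the stages in open tissue. Rbp4, the plasma carrier of retinol, had a region difference of -0.45 at E9.5 (adjusted p = 0.3152) and -0.91 at E8.5 (SE 0.25, adjusted p = 0.05047). Stra6, the membrane receptor that takes retinol from it, came to -0.93 at E9.5 (SE 0.47, adjusted p = 0.3219) and -0.57 at E8.5 (SE 0.52, adjusted p = 0.8082).

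Of 11 other retinol and retinal oxidoreductases, 1 was higher and 1 lower by limma in closed tissue at E9.5 (18.2%, against 8.54% of all genes). At E8.5, 0 passed between the regions, where 2 had an unadjusted p under 0.05. Rdh14 was at 7.61, 7.55 and 7.67 in closed and 8.44, 8.58 and 8.48 in open tissue at E9.5, a difference of -0.89 (SE 0.15, limma adjusted p = 0.002835). At E8.5 it was at 7.78 and 8.03 in closed and 7.17, 7.77 and 7.61 in open tissue, a difference of 0.39 that was not called (SE 0.17, adjusted p = 0.3101). Dhrs7, another short-chain reductase, was higher in closed tissue at E9.5 by 0.39 (SE 0.11, adjusted p = 0.04722). Of 3 other genes that break down or carry retinoic acid, 0 passed by limma between the regions, with an unadjusted p under 0.05 for 1 at E9.5 and 0 at E8.5, and Fabp5, a carrier to other nuclear receptors, differed by -0.05 at E9.5 (SE 0.06, adjusted p = 0.7372) and 0.08 at E8.5 (SE 0.07, adjusted p = 0.784).

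Receptors moved in both directions. Of 10 receptor and corepressor genes, 3 were higher and 1 lower in closed tissue at E9.5 (40%, against 8.54% of all genes), with a median of 0.09. At E8.5, 3 were higher and 2 lower (50%, against 7.17%), with a median of 0.13. Rarb, the receptor whose own gene retinoic acid is known to induce, was at 6.87, 6.51 and 6.88 in closed and 3.95, 3.94 and 3.54 in open tissue at E9.5, and at 8.36 and 8.75 in closed and 4.89, 4.81 and 3.84 in open tissue at E8.5. Closed arrays were far above open arrays, some of which lay below the filter, and the differences were 2.94 at E9.5 (SE 0.25, limma adjusted p = 1.35e-05) and 4.04 at E8.5 (SE 0.28, adjusted p = 2.929e-06). In closed tissue Rarb was lower at E9.5 than at E8.5, with a difference of -1.80 (SE 0.28, adjusted p = 0.004697), as Aldh1a2 was.

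Rarg, the receptor known from caudal tissue, was at 7.57, 8.03 and 8.19 in closed and 8.97, 8.70 and 9.72 in open tissue at E9.5, and at 7.73 and 7.58 in closed and 8.96, 9.80 and 9.28 in open tissue at E8.5. Every closed array was below every open array, with differences of -1.20 (SE 0.27, limma adjusted p = 0.01676) and -1.69 (SE 0.31, adjusted p = 0.004302). The corepressor Nrip1 was higher in closed tissue at both stages, by 0.75 at E9.5 (adjusted p = 0.01529) and 0.91 at E8.5 (adjusted p = 0.01039). Rxra was higher at E8.5 by 0.62 (adjusted p = 0.0158), Rara at E9.5 by 0.39 (adjusted p = 0.04506), and Rxrg was lower at E8.5 (difference -0.88, adjusted p = 0.001652).

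Genes known to respond to retinoic acid were also measured. Their list, like the members, was chosen with earlier results of these data known, so it is no independent readout. Dhrs3 is also a member, Rarb and Nrip1 are also in the receptor list, and Stra6 is also in the supply list. These genes are therefore counted in more than 1 list. Of 18 tested, 10 were higher and 1 lower in closed tissue at E9.5 (61.1%, against 8.54% of all genes), with a median of 1.00. At E8.5, 12 were higher and 1 lower (72.2%, against 7.17%), with a median of 1.11. Nr2f1, a nuclear receptor of the neural tube, differed by 4.82 at E9.5 (SE 0.18, limma adjusted p = 6.371e-08) and 5.40 at E8.5 (SE 0.20, adjusted p = 6.338e-08). Pax6, a neural progenitor factor, differed by 3.13 at E9.5 (SE 0.16, adjusted p = 2.572e-07) and 3.83 at E8.5 (SE 0.18, adjusted p = 2.077e-07). Meis1, a Hox cofactor, differed by 3.10 at E9.5 (SE 0.18, adjusted p = 6.927e-07). Fgf8, a caudal signal known to be lowered by retinoic acid, was lower in closed tissue, with differences of -3.59 at E9.5 (SE 0.20, adjusted p = 4.692e-07) and -4.37 at E8.5 (SE 0.23, adjusted p = 3.03e-07). Mean signal lay below the filter of 4.30 in open tissue at both stages for Nr2f1 (3.68 at E9.5 and 3.46 at E8.5) and Olig2 (3.66 and 3.65), in open E9.5 tissue for Rarb (3.81) and in closed E8.5 tissue for Fgf8 (3.84). The sizes of those differences therefore depend on background. These 4 genes passed the filter through the region where they were high, and they are among the 18 counted.

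Not all known responders followed. Hoxb1, Hoxa3, Hoxb4, Cdx1 and Stra6 were not called between the regions at either stage, with differences from -1.02 for Cdx1 at E8.5 to 0.16 for Hoxb4 at E9.5. Between the stages, 5 of the 18 were called lower at E9.5 in closed tissue, where 1.46% of all genes were. Pax6 and Olig2 are also neural progenitor markers, and Fgf8 and Cdx1 also caudal progenitor markers, so these lists share genes. The 14 neural progenitor genes included 12 called higher in closed tissue at E9.5 (85.7%, against 2.75% of all genes) and 11 at E8.5 (78.6%, against 3.79%). Such a high share was thus not particular to the responders. Whether the responders followed retinoic acid or the makeup of the tissue was not tested.

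**Figure D5:**
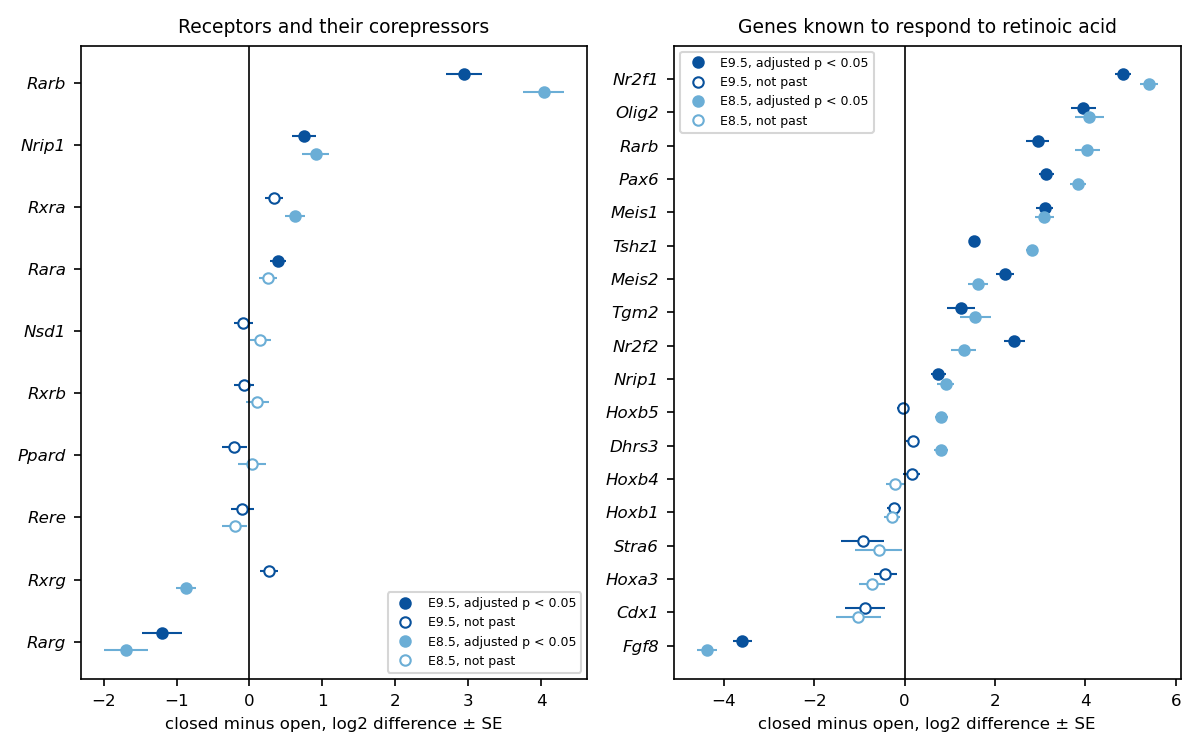
Closed minus open log2 difference with the SE of the model at E9.5 and E8.5 for 10 receptor and corepressor genes (left) and 18 genes known to respond to retinoic acid (right). Filled points passed an adjusted p of 0.05. Rarb is at 2.94 and 4.04 and Rarg at -1.20 and -1.69 on the left, and Nr2f1 is highest and Fgf8 lowest on the right.

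As a description with no test, genes whose values over the 11 arrays ran most like those of a member were found among 13330 other genes. For Aldh1a2 they were Pax6 (Pearson r 0.997), Fndc5 (0.988) and Sox21 (0.985). For Cyp26a1 they were Dact1 (0.992), Lmo2 (0.986) and Mixl1 (0.985), for Crabp2 Dleu7 (0.975), Irx2 (0.974) and Fndc5 (0.972), and for Rdh10 Arhgap19, P3h2 and Aff3 (0.960 to 0.953). For Dhrs3 they were Zdhhc15, Folr1 and Unc119b (0.941 to 0.940), and for Crabp1 Pgghg, Galns and Nudt17 (0.963 to 0.961). Aldh1a3 gave Hmx1, Cd46 and Map2k3os (0.941 to 0.923), and Cyp26b1 gave Zmynd11, Kcnh3 and 4930578G10Rik (0.968 to 0.945). The 11 arrays fall into 2 clusters by region, and arrays of a region share the tissue makeup given above, so these values of r are pooled over that split.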

How the data were processed

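The authors hybridized 12 Affymetrix Mouse Genome 430 2.0 arrays with RNA labelled by a 2-cycle protocol from 50 ng, of which they dropped 1, of closed E8.5 tissue, after quality assessment, per the labels' protocols. Protease treatment lasted 8 min (E9.5) or 5 min (E8.5). The deposited log2 values of 45101 probe sets ran from 2.37 to 14.7 with 0 missing. The submitters' processing notes name MAS5, with no version or role, and the normalization behind the values is not given in the sources used here.

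Values were used as deposited. Probe sets with several symbols (932) or none (9160) and 64 control probe sets were left out, which left 34945. Tested genes, 13338 in all, had a mean of at least 4.30, the 40th percentile of all probe sets. Group means were fitted in limma 3.58.1 (R 4.3.3, eBayes with an intensity trend, 7 residual degrees of freedom and 4.40 from the prior at the median), after a check on simulated data. The members and lists were chosen with earlier results of these data known. All members were named, from each wider list up to 4 genes of smallest p per region comparison were eligible, and for each member the 3 genes of highest r. Rxra and the responders not called in either region comparison were named after their values were seen. Listed genes without a probe set of exactly 1 symbol were not analysed here.

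To see whether replicate numbers pair open with closed arrays, each array's departures from its group mean were correlated over all tested genes. Same-numbered arrays came to 0.308, 0.341 and 0.687 at E9.5 and to 0.576 and 0.697 at E8.5, where departures of 2 closed arrays mirror each other. Unlike numbers also came over 0.1. Closed E9.5 replicate 1 came to 0.317 with open replicate 2, and closed replicate 2 to 0.264 with open replicate 1. Closed E8.5 replicate 1 came to 0.309 with open replicate 3. Every same-numbered pair was over the limit of 0.1, but that limit does not single out equal numbers. The numbers were taken as a possible pairing, although the labels do not say so. The main fit has no block, and blocked values are given where they change a call.

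Alternatives covered normalization (quantile, or median centring), the filter (none, or at the 60th percentile), averaged probe sets, a variance prior without a trend, array weights, the block, a fit of only the groups compared, each array left out, the 3-prime minus 5-prime signal as a covariate, and both arrays highest in it left out. Another probe set of Rdh10 and Aldh1a3 was added after seeing the data.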

Additional observations from a re-analysis of the deposited data

Results flagged for a closer look

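In the wider pathway, 3 genes had a region difference that itself changed between the stages by limma's test of region and stage. The retinol dehydrogenase Rdh14 came to -1.28 (SE 0.23, adjusted p = 0.02184), being lower in closed tissue at E9.5 (-0.89) and not called at E8.5 (0.39). The receptor Rxrg came to 1.15 (SE 0.18, adjusted p = 0.01023), at 5.34, 5.37 and 5.52 in closed and 5.21, 4.99 and 5.22 in open tissue at E9.5, and at 5.78 and 5.69 in closed and 6.80, 6.62 and 6.42 in open tissue at E8.5. The responder Tshz1, a zinc finger factor, came to -1.27 (SE 0.18, adjusted p = 0.004604), since its closed minus open difference was 1.54 at E9.5 and 2.82 at E8.5. Open tissue at E9.5 holds the 2 arrays of largest 3-prime minus 5-prime signal, and its part in these values was not tested.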

How the results depend on the processing

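In every alternative run, Aldh1a2, Cyp26a1 and Crabp2 kept the direction and the call of both region differences, and Aldh1a2 those of its stage difference in closed tissue. With the 3-prime minus 5-prime covariate, called genes came to 1519 (main 957) between regions at E8.5, 1764 (main 1139) at E9.5, 730 (main 323) between stages in closed tissue and 297 (main 167) for the interaction. Called members then came to 5 (main 3) at E9.5, 3 (main 1) between stages in open tissue and 2 (main 0) for the interaction. Array weights gave 3424 genes and 6 members at E9.5, 4301 and 3 between stages in open tissue, and 215 and 1 in closed tissue (main 3 members). The weight was 6.29 for open E9.5 replicate 1, an array of high 3-prime minus 5-prime signal, and 0.31 to 2.47 for the other arrays. The replicate block gave 2221 genes and 5 members at E9.5, and 452 and 1 for the interaction. It changed no member's call other than those given for Crabp1, Rdh10 and Cyp26a1. With only the groups compared, closed tissue gave 150 genes and 1 member between stages, and open tissue 0 members. Without open E9.5 replicates 1 and 2 together, counts were 603 genes at E9.5, 182 genes (main 670) and 0 members between stages in open tissue, and 72 for the interaction. Single arrays left out gave 654 to 1097 genes and 3 to 5 members at E8.5, 792 to 1533 and 3 to 3 at E9.5, 367 to 1262 and 0 to 1 between stages in open tissue, 174 to 375 and 1 to 3 in closed tissue, and 84 to 239 and 0 to 0 for the interaction. The 3 members at E8.5 were those left without closed E8.5 replicate 2. The cause of these shifts was not tested.

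Signs turned only for uncalled differences. For Cyp26b1 between regions, quantile normalization gave 0.0083 at E8.5 and array weights gave -0.007 at E9.5, and single arrays left out gave -0.315 to 0.297 at E8.5 and -0.026 to 0.301 at E9.5. Between stages in closed tissue it came to 0.0081 (array weights) and 0.0106 (covariate), and with single arrays left out to -0.324 to 0.288, and its interaction to -0.12 to 0.492. With single arrays left out, Aldh1a3 came to -0.198 to 0.11 at E8.5 and -0.0452 to 0.263 between stages in closed tissue, Crabp2 to -0.0122 to 0.0261 between stages in open tissue, and the Crabp1 interaction to -1.63 to 0.943. The other tested probe set of Aldh1a3 gave 0.0672 at E8.5, Dhrs3 between stages in open tissue came to 0.0354 with array weights, and the Rdh10 interaction to 0.0043 without open E9.5 replicates 1 and 2 together. A group reduced to 1 array was taken to have the spread of the rest. Of called genes, 50.7% were higher between stages in open tissue with array weights (main 71.8%), and 61.3% with quantile normalization. Signal near background limits Aldh1a1, Aldh1a3, Cyp26b1 and Dhrs3.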
